A study of Mus musculus with 8 samples.

Results

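Macroautophagy wraps cytoplasm and worn organelles in a double membrane, the autophagosome, which then fuses with the lysosome for digestion. In cardiomyocytes, long-lived cells rich in mitochondria, the pathway is known for clearing damaged organelles and for supplying nutrients during fasting. The 39 genes described here encode its machinery, from the initiating kinases to the lysosomal proteases. They were taken from a list of symbols, and each symbol was matched to 1 row of the 38293 in the deposited count table through GENCODE M21. All 39 had enough counts to be tested, among 13336 genes tested in all. The count table holds transcript levels, so it carries no information on lipidation, protein turnover or autophagic flux.

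Left ventricles were taken from 4 Nbdy knockout (KO) and 4 wild-type (WT) mice. All were C57BL/6 males, 8 weeks old, untreated and kept in normal housing. The product of Nbdy (mORF4 in the labels) is a small protein that associates with the mRNA decapping machinery. Each heart gave 1 poly(A) RNA library, so the spread within a group is that between hearts. The labels give the genotype by name and do not describe the knockout allele.

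Total counts per library ran from 11101901 to 14699949. Nbdy, the targeted gene on the X chromosome, stood at 9.58 to 10.4 CPM (counts scaled to library size) in the KO hearts and 19.0 to 20.1 CPM in the WT hearts. KO over WT, the log2 fold change came to -0.97 ± 0.11 (SE), with an adjusted p of 0.0060 by edgeR's quasi-likelihood test. Without KO replicate 6 that p was 0.0562. The fold change itself lay between -0.99 and -0.95 with any 1 library left out. Mitochondrial transcripts took 23.0 to 26.7% of counts in KO libraries and 19.4 to 29.2% in WT libraries, and WT replicate 1 held the highest share. Cardiomyocyte markers were abundant in every library, summing to 75707 to 88669 CPM in KO and 72996 to 87006 CPM in WT. Markers of macrophages, fibroblasts, endothelial cells, mural cells and red blood cells were present as well. Lymphocyte and atrial markers were scarce, and only 2 of 5 and 1 of 3 of them had enough counts to be tested. The lymphocyte markers summed to 2.19 to 3.85 CPM in KO and 3.35 to 3.61 CPM in WT. No marker searched for had a sum of 0 counts over the 8 libraries, but the lymphocyte marker Cd3g and the atrial marker Sln had 0 counts in several libraries.

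The promoters of several lysosomal and autophagy genes carry the E-box, a short DNA word read by basic helix-loop-helix factors such as Tfeb and Tfe3, which are members of the list themselves. The letters CACGTG were therefore searched on both strands (the word reads the same on each). Each window ran from 250 bases before to 50 after a RefSeq start. Some genes had more than 1 start, and a match in any window counted for the gene. RefSeq promoter sequence (GRCm38.p6) was at hand for 32 of the 39 members, in 38 windows. CACGTG occurred in 7 of the 32 (21.9%), in 8.09% of all 27025 genes with a promoter sequence and in 11.8% of the 10118 of these that were tested. The longer word TCACGTGA, the core of the lysosomal CLEAR element, occurred in 2 of the 32 (6.25%) and in 2.15% of the tested genes. Every TCACGTGA also contains CACGTG. For Atg7, Atg14 and Ctsl the window with CACGTG lay wholly inside the annotated gene. The Ctsd window reached past the annotated gene, but its TCACGTGA lay inside the gene. Its other CACGTG lay upstream of the gene. The 3 promoter stretches below were chosen because they hold the most copies or the longer word, with CACGTG in capitals.
Lamp1, chr8:13159088-13159160, plus strand: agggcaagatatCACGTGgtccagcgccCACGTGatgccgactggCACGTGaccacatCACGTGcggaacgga
Atg3, chr16:45158723-45158775, plus strand: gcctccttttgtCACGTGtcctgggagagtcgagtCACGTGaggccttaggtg
Ctsd, chr7:142387908-142387937, minus strand: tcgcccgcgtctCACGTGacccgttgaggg
Lamp1, which encodes a major glycoprotein of the lysosomal membrane, had 4 copies, and Atg3 and Ctsd each had 1 copy of the longer word. A match is a description of the letters and does not show that a factor binds there.

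The 39 genes spanned a 329.6-fold range of level per length, in CPM per kilobase (kb) of annotated exon. Map1lc3a, an LC3 protein that coats the autophagosome membrane, was the highest, at 381 ± 86.8 CPM per kb in KO and 327 ± 51.5 in WT (SD, n = 4 each). Ctsd, the aspartic protease cathepsin D, followed at 303 ± 19.5 CPM per kb in KO and 294 ± 33.7 in WT. Lamp1, Gabarap and the cargo receptor Sqstm1 completed the 5 highest, and these were the 5 highest as well when the longest coding transcript set the length. Map1lc3b, the LC3 protein most used as an autophagosome marker, had a lower level than Map1lc3a, at 21.8 ± 0.975 CPM per kb in KO and 20.9 ± 1.75 in WT. That figure depends on the length taken, because 7517 bases of exon are annotated for Map1lc3b and 2633 in its longest coding transcript. The lowest member was Atg4c, an LC3-processing protease, at 0.974 ± 0.158 CPM per kb in KO and 1.17 ± 0.596 in WT, with as few as 17 counts in a library.

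**Figure D1:**
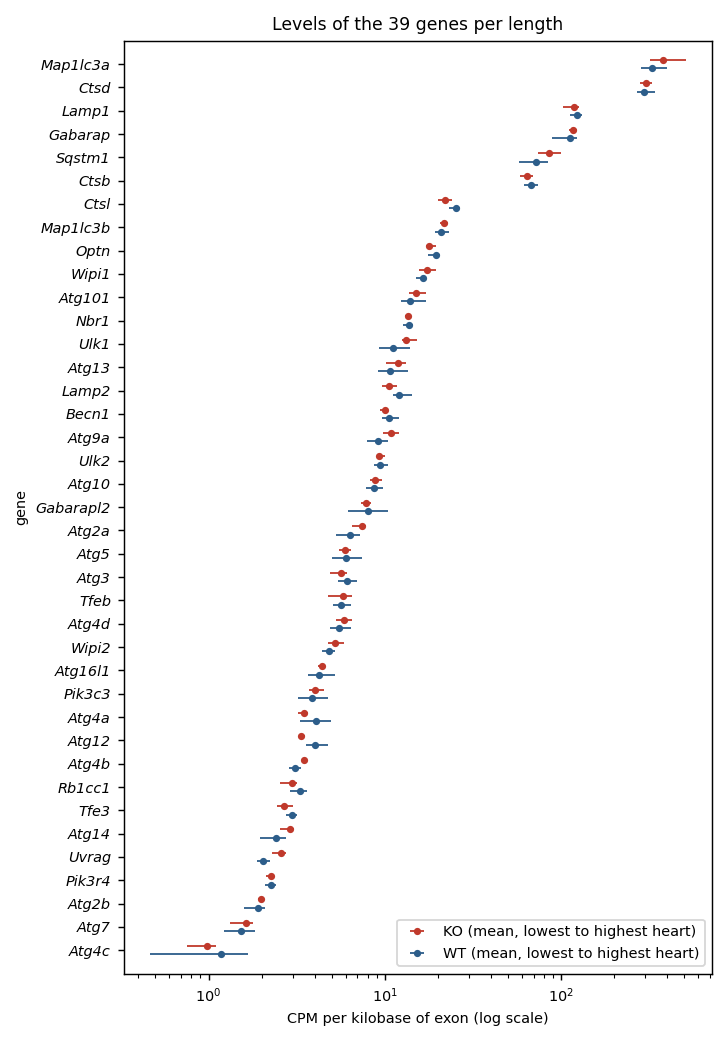
Level of each of the 39 genes in CPM per kilobase of exon on a log axis, ordered by the mean of all libraries; points are group means (n = 4 hearts each) and bars run from the lowest to the highest heart. Map1lc3a and Ctsd lead, Atg4c is lowest, and the KO and WT bars overlap for 36 of the 39 genes.

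No member differed between KO and WT hearts at an adjusted p under 0.05. Over all genes, 0.0225% passed that threshold (0.015% higher and 0.0075% lower in KO), so a count of 0 of 39 is near the background. At an unadjusted p under 0.05 there was 1 member of 39, Uvrag, against 6.4% of all genes tested (3.5% higher and 2.89% lower in KO). DESeq2 and limma-voom also called 0 members, with 1 at an unadjusted p under 0.05 in each. The log2 fold changes of the members lay between -0.28 and 0.34, with a median of 0.04, beside a median of -0.0032 over all genes tested. Of the 39, 22 were positive and 17 negative, and 49.4% of all genes tested were positive. These are levels in whole tissue, in which fewer cells of a type and less RNA per cell cannot be told apart.

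The intervals, each for 1 gene and unadjusted for the number of genes, give the size of difference that the data leave room for. The 95% interval of the KO over WT ratio lay within a 1.5-fold change in either direction for 37 of the 39 genes. The exceptions were Uvrag, whose interval of the log2 fold change ran from 0.08 to 0.59, and Atg4c, whose interval ran from -1.03 to 0.47. For 26 of the 39 the interval did reach beyond a 1.25-fold change. The median SE of a member's log2 fold change was 0.12, and 0.16 over all genes tested.

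**Figure D2:**
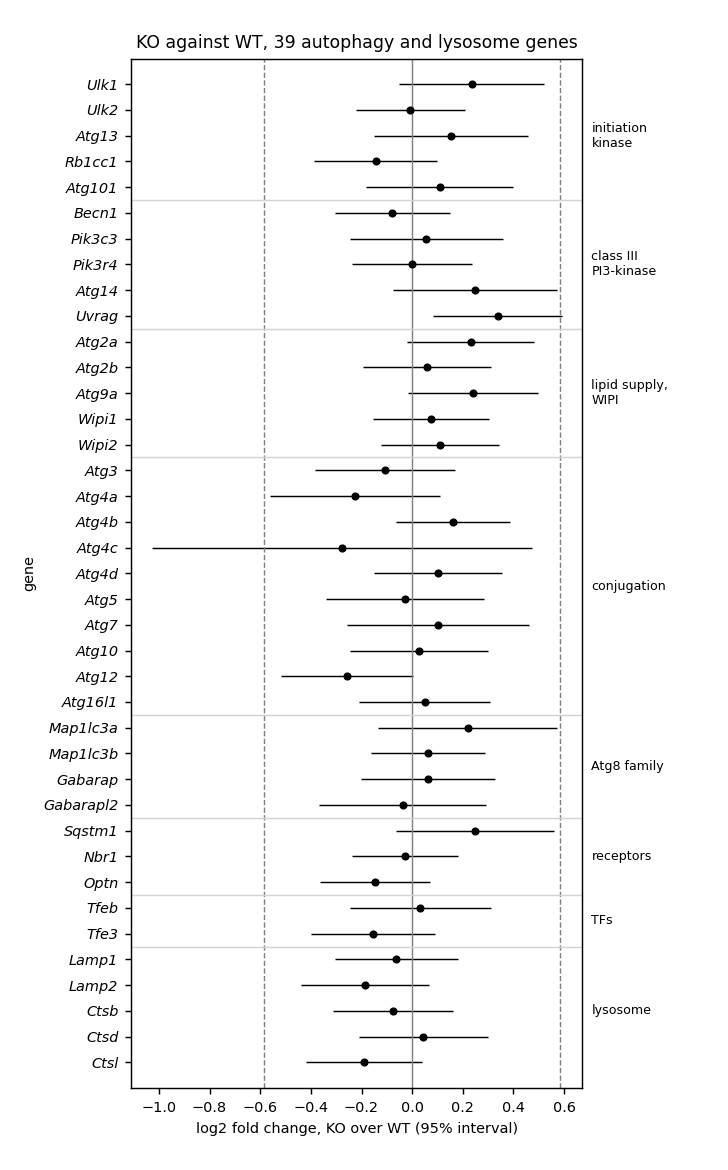
Log2 fold change of KO over WT with its 95% interval for each of the 39 genes, grouped by role; dashed lines mark a 1.5-fold change in either direction. All intervals but those of Uvrag and Atg4c stay between the dashed lines.

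Groups that do not overlap were found for 3 members: Uvrag and Atg4b, with all 4 KO hearts above all 4 WT hearts, and Atg12, with all 4 KO hearts below. That is 7.69% of the members, and 4.12% of all genes tested had such separation in either direction (2.14% with KO higher and 1.98% with KO lower).

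The ULK complex starts autophagosome formation and takes its signals from mTORC1 and AMPK. Ulk1, its kinase, had 80.8, 98.2, 81.1 and 81.3 CPM in KO replicates 5 to 8, against 90.6, 60.6, 71.6 and 67.5 CPM in WT replicates 1 to 4. WT replicate 1 lay above 3 of the 4 KO hearts, so the groups overlapped (log2 fold change 0.23 ± 0.13 SE, edgeR adjusted p 0.784). It was 0.36 without WT replicate 1 and 0.097 with an offset for GC content and gene length. Ulk2, the second kinase, averaged 55.6 ± 2.74 CPM in KO and 55.8 ± 4.49 CPM in WT (SD, n = 4 each).

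Atg101, a small subunit that stabilises Atg13, had the highest level per kb in this complex. It stood at 27.4, 22.0, 23.5 and 23.2 CPM in the KO hearts and 19.7, 27.2, 19.9 and 22.5 CPM in the WT hearts, and the groups overlapped. The adaptor Atg13 (log2 fold change 0.15 ± 0.14) and the scaffold Rb1cc1, also called FIP200 (-0.14 ± 0.11), did not pass either.

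The class III PI3-kinase marks the growing membrane with phosphatidylinositol 3-phosphate. Its subunits assemble in 2 forms, with Atg14 at the site of autophagosome formation or with Uvrag on later, endosomal membranes. Uvrag had 20.8, 22.4, 24.9 and 24.9 CPM in the KO hearts, against 18.9, 20.2, 17.0 and 17.4 CPM in the WT hearts. The lowest KO heart was just above the highest WT heart. Uvrag had the smallest p of the list, with a log2 fold change of 0.34 ± 0.12 (1.26-fold), an unadjusted p of 0.0132 and an adjusted p of 0.722 in edgeR. An antisense transcript, Gm45187, overlaps 17.6% of the exon bases of Uvrag, and the strand setting of the counting is not given in the sources used here.

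Atg14 stood at 12.5, 13.3, 13.2 and 10.9 CPM in the KO hearts and 11.8, 8.48, 11.9 and 9.75 CPM in the WT hearts. The groups overlapped, and its log2 fold change of 0.25 ± 0.15 became 0.16 without WT replicate 2, the lowest WT heart. Becn1, the regulatory subunit Beclin 1 common to both forms, had the highest level per kb in the complex. It had 72.6, 71.9, 70.4 and 66.8 CPM in the KO hearts and 68.1, 76.2, 84.5 and 68.4 CPM in the WT hearts, which spanned the wider range. The antisense gene Cntd1 overlaps 43.9% of the annotated exon bases of Becn1. The catalytic subunit Pik3c3 and the regulatory subunit Pik3r4 had log2 fold changes of 0.06 ± 0.14 and -0.00090 ± 0.11. The median deviation of the 5 genes of the complex from the mean of all libraries, on the log2 scale, was 0.0082, 0.06, 0.06 and 0.02 in KO replicates 5 to 8 and -0.08, -0.03, -0.05 and -0.08 in WT replicates 1 to 4. These medians separated by genotype in this role group alone of the 8, by a narrow margin (0.0082 in KO replicate 5 and -0.03 in WT replicate 2). Of its 5 genes Uvrag alone (20%) had groups that did not overlap, beside 4.12% of all genes tested. The separation was noticed on looking over all 8 role groups, and the medians were not tested.

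Membrane lipid reaches the growing autophagosome through the transfer proteins Atg2a and Atg2b and the scramblase Atg9a, guided by the phosphoinositide-binding proteins Wipi1 and Wipi2. All 5 genes had positive log2 fold changes, from 0.06 to 0.24, and none passed; Atg2b turned to -0.02 with a GC and length offset. Atg9a had 69.4, 62.9, 56.6 and 61.2 CPM in the KO hearts and 58.4, 45.7, 47.8 and 59.8 CPM in the WT hearts. A single KO heart, replicate 7, lay below the 2 highest WT hearts. Atg2a had 58.4, 59.7, 59.8 and 50.3 CPM in the KO hearts and 55.6, 40.8, 50.6 and 47.5 CPM in the WT hearts. KO replicate 8 stood apart from the other KO hearts and lay inside the WT range.

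The log2 fold changes were 0.24 ± 0.12 for Atg9a and 0.23 ± 0.12 for Atg2a (edgeR adjusted p 0.777 for each). They were 0.12 and 0.06 with a GC and length offset. Gm29253 overlaps 31.8% of the exon bases of Atg9a on the same strand, so their levels may share reads. Wipi1, the most abundant of the 5 per kb, had 70.8, 79.4, 69.3 and 85.6 CPM in the KO hearts and 75.1, 72.6, 66.3 and 75.6 CPM in the WT hearts, with no separation.

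**Figure D3:**
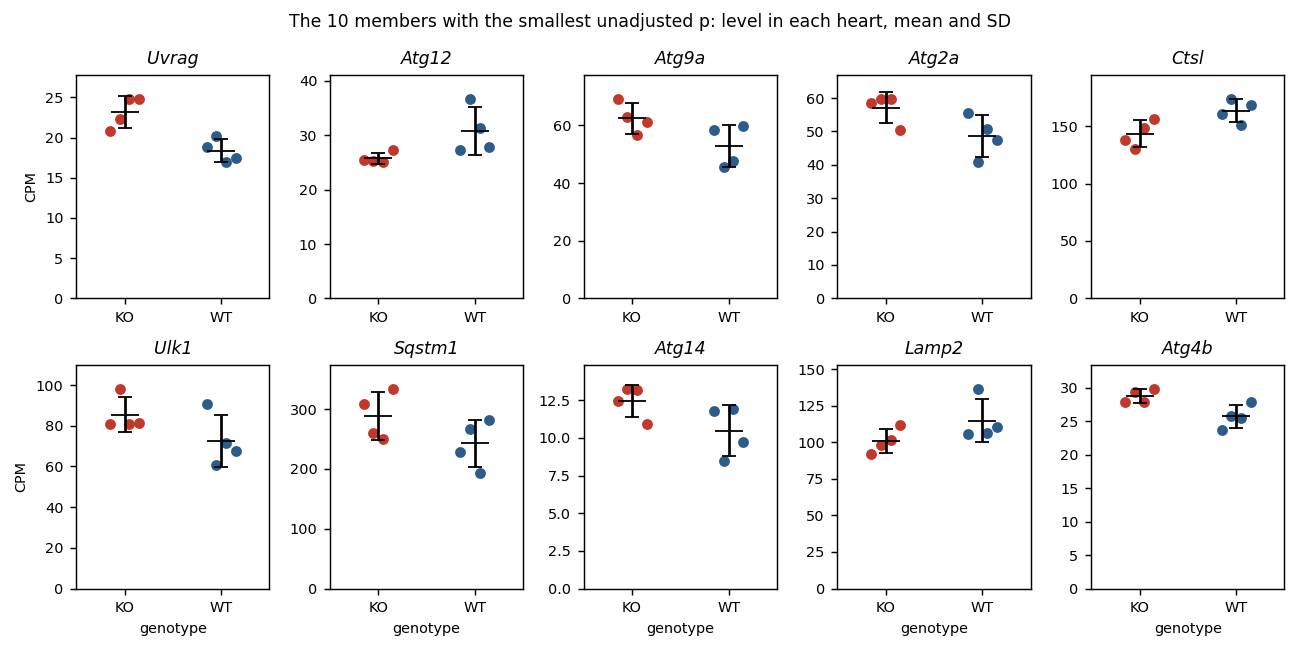
Level in CPM of the 10 members with the smallest unadjusted p, by genotype; each point is 1 heart, and the black bars give the mean and SD (n = 4 each). The KO and WT points separate for Uvrag, Atg12 and Atg4b and overlap for the other 7 genes, and none of the 10 passed.

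Conjugation enzymes attach LC3 and GABARAP proteins to the membrane lipid phosphatidylethanolamine. Atg7 is the E1-like enzyme, Atg3 and Atg10 are E2-like enzymes, Atg12, Atg5 and Atg16l1 form the E3-like complex, and the Atg4 proteases prime LC3 and remove it again. Of these 10 genes 5 were positive and 5 negative, with a median log2 fold change of -0.00070.

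Atg12 had 25.5, 25.2, 25.2 and 27.2 CPM in the KO hearts, against 27.4, 36.8, 31.3 and 27.8 CPM in the WT hearts. The KO hearts kept within a narrow band just under the lowest WT heart. The log2 fold change was -0.26 ± 0.12 (edgeR adjusted p 0.777), and -0.16 without WT replicate 2, which held the highest level. Atg4b, the protease most active on LC3, had 27.9, 29.3, 27.9 and 29.8 CPM in the KO hearts and 23.6, 25.8, 25.5 and 27.9 CPM in the WT hearts. The highest WT heart nearly met the lowest KO hearts, at 27.88 and 27.92 CPM, and the log2 fold change was 0.16 ± 0.10 (edgeR adjusted p 0.799).

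Atg10, the highest of the group per kb of annotated exon (Atg16l1 was the highest by coding transcript length), had 16.5, 14.4, 15.6 and 14.1 CPM in the KO hearts and 13.4, 15.3, 14.0 and 16.8 CPM in the WT hearts, with no separation. Atg4c had the least stable level of the list. It ran from 2.52 to 3.69 CPM in the KO hearts and from 1.57 to 5.62 CPM in the WT hearts, which gave an SE of 0.35 around a log2 fold change of -0.28. That value was -0.53 without WT replicate 2, -0.06 without WT replicate 1 and -0.07 without WT replicate 3. Atg4a shares 2115 bases at 99.3% identity with Atg4a-ps, a copy that held 21 counts over all libraries beside 1020 for Atg4a, so their reads may be mixed. Atg3, Atg4a, Atg4d, Atg5, Atg7 and Atg16l1 had log2 fold changes between -0.23 and 0.10.

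The Atg8 family, to which LC3 and GABARAP proteins belong, is the part of the autophagosome that receptors recognise. Map1lc3a had 601, 422, 375 and 402 CPM in the KO hearts and 337, 385, 351 and 472 CPM in the WT hearts. KO replicate 5 was well above every other heart, and the remaining KO hearts lay within the WT range. The log2 fold change of Map1lc3a was 0.22 ± 0.16 (edgeR adjusted p 0.818), 0.05 without KO replicate 5 and 0.11 with the GC and length offset. Map1lc3b averaged 164 ± 7.33 CPM in KO and 157 ± 13.1 CPM in WT, and Gabarap 215 ± 11.6 CPM in KO and 206 ± 29.0 CPM in WT (SD, n = 4 each). Gabarapl2, also called GATE-16, had a log2 fold change of -0.04 ± 0.15; 3 processed pseudogenes carry at least 96.6% identity to stretches of its transcript, so its level is uncertain.

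Cargo receptors hold ubiquitin-tagged cargo against LC3. Sqstm1, or p62, is itself degraded by autophagy as a protein and induced as a transcript by stress factors such as Nrf2. Sqstm1 had 308, 261, 249.7 and 334 CPM in the KO hearts and 229, 267, 194 and 282 CPM in the WT hearts. The KO replicates 5 and 8 exceeded all WT hearts, and KO replicates 6 and 7 lay among them. The log2 fold change was 0.25 ± 0.14 (edgeR adjusted p 0.787), and 0.15 without WT replicate 3, the lowest heart. The antisense gene Mrnip overlaps 17.3% of the exon bases of Sqstm1. Nbr1, a receptor related to p62, had a value of -0.03 ± 0.10, and Optn, a receptor for mitochondria and bacteria, a value of -0.15 ± 0.10.

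Tfeb and Tfe3 are the transcription factors that raise lysosomal and autophagy genes when mTORC1 is inactive, and they are controlled largely by entry into the nucleus. Tfeb stood at 37.2, 31.1, 27.1 and 36.1 CPM in the KO hearts and 28.8, 31.2, 31.8 and 36.6 CPM in the WT hearts, with the KO hearts on both sides of the WT range. Its log2 fold change was 0.03 ± 0.13, and -0.14 with a GC and length offset. Tfe3 averaged 24.8 ± 2.44 CPM in KO and 27.7 ± 1.69 CPM in WT (SD, n = 4 each), a log2 difference of -0.16 ± 0.11 with an edgeR adjusted p of 0.817. The 7 members with CACGTG in a promoter window had a median log2 fold change of -0.03 and a range from -0.19 to 0.25. The 25 without it had a median of 0.06 and a range from -0.28 to 0.34. The ends of the range of the 7 were Ctsl and Atg14, whose matching windows lay inside the annotated gene. Members with no promoter sequence were in neither group, and the split was not tested.

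The lysosomal members are the membrane glycoproteins Lamp1 and Lamp2 and the proteases cathepsin B, D and L. Of these 5 genes 4 had negative log2 fold changes, Ctsd turned negative with library totals and with a GC and length offset, and none passed. Ctsl, cathepsin L, had 138, 129.9, 149 and 156 CPM in the KO hearts, against 161, 174, 151 and 168 CPM in the WT hearts. KO replicate 8 alone reached into the WT range. Its log2 fold change was -0.19 ± 0.11 (edgeR adjusted p 0.784).

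Lamp2, whose loss causes the cardiomyopathy of Danon disease in humans, had 92.3, 98.4, 101 and 112 CPM in the KO hearts and 106, 137, 106 and 111 CPM in the WT hearts. The 3 lowest KO hearts lay under every WT heart, and WT replicate 2 stood above all others. The log2 fold change of -0.19 ± 0.12 became -0.09 without WT replicate 2. Ctsd, the most abundant lysosomal member, had 773, 662, 709.7 and 703 CPM in the KO hearts and 632, 698, 633 and 800.3 CPM in the WT hearts, with WT on both sides of KO. Gm49369 overlaps 34.4% of the exon bases of Ctsd on the same strand, and Gm47123 overlaps 26.8% of those of Ctsl on the other. Lamp1 and Ctsb had values of -0.06 ± 0.11 and -0.08 ± 0.11.

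Lysosomal genes are also expressed by macrophages and fibroblasts, so their markers are given beside these results. The 12 macrophage markers summed to 354 to 520.5 CPM in KO and 344 to 531 CPM in WT, with 5 of 12 positive and a median log2 fold change of -0.04. The 9 fibroblast markers summed to 977 to 1259 CPM in KO and 1175 to 1496 CPM in WT, with 1 of 9 positive and a median of -0.21. The 5 markers of red blood cells, mainly globins, were all positive, with a median of 0.31. They summed to 1146 to 2147 CPM in KO and 815 to 1782 CPM in WT, so the groups overlapped. In these 3 lists KO and WT hearts did not overlap for the macrophage marker Mrc1 (-0.42 ± 0.14) and the fibroblast marker Dcn (-0.27 ± 0.13). Both were lower in KO, and 4.12% of all genes tested had groups that did not overlap in either direction. No marker of these 3 lists passed, none had a sum of 0 counts, and their part in the values of the 39 genes was not tested.

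**Figure D4:**
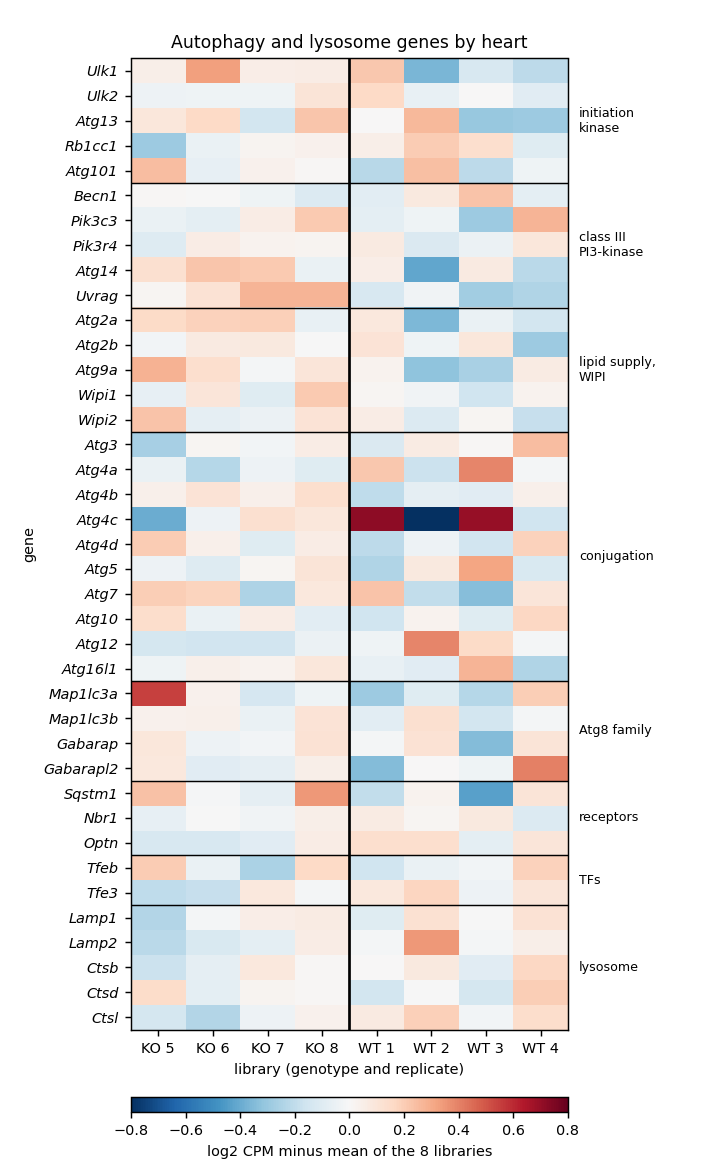
Log2 CPM of the 39 genes in each heart, minus the mean of the 8 libraries, grouped by role, with KO hearts left of the line; colours saturate at 0.8 on either side, which WT replicate 2 exceeds for Atg4c. Most genes show higher and lower hearts on both sides of the line between genotypes; Map1lc3a in KO replicate 5 and Atg4c in the WT hearts stand out.

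Single hearts also differed from each other across the list. KO replicate 8 was above the mean of the 8 libraries for 30 of the 39 genes (76.9%, and 51.9% of all genes tested). WT replicate 3 was above the mean for 13 of the 39 (33.3%, and 50.5% of all genes tested). The median of the 39 genes over their WT mean, on the log2 scale, was 0.01, -0.02, 0.0071 and 0.07 in KO replicates 5 to 8 and -0.03, 0.01, -0.05 and 0.02 in WT replicates 1 to 4. WT replicate 2 held the highest level of 10 members (25.6%), and that heart was the highest for 19.8% of all genes tested.

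A further 128 genes of the pathway were compared in the same fit, and 0 passed in edgeR, DESeq2 or limma-voom. At an unadjusted p under 0.05 there were 8 of them in edgeR (6.25%, and 6.4% of all genes tested), 6 positive and 2 negative. By list, 20 of 30 other autophagy genes were positive, as were 19 of 40 lysosomal hydrolases and cofactors, 8 of 18 lysosomal membrane proteins, 6 of 16 subunits of the proton pump V-ATPase and 15 of 24 regulators of mTORC1 and AMPK. The median log2 fold changes of these lists lay between -0.03 and 0.06. Of the 8 genes with an unadjusted p under 0.05 in edgeR, 4 were lysosomal membrane proteins (22.2% of that list, all positive). Another 2 were hydrolases (both negative), 1 was an autophagy gene, 1 a regulator and 0 a V-ATPase subunit. KO and WT hearts did not overlap for 6.25% of the 128 genes, 16.7% of the lysosomal membrane proteins and 4.12% of all genes tested. These shares were not tested.

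Calcoco1, a receptor for autophagy of the endoplasmic reticulum and Golgi, had the smallest p. It had 126, 132, 126 and 141 CPM in the KO hearts and 107, 81.2, 85.6 and 109.7 CPM in the WT hearts, with no overlap (log2 fold change 0.45 ± 0.12, edgeR adjusted p 0.711). Npc1, which exports cholesterol from the lysosome, had 40.2, 38.5, 40.2 and 38.3 CPM in the KO hearts and 35.1, 30.2, 29.5 and 30.3 CPM in the WT hearts, also with no overlap (0.33 ± 0.10). Flcn, a GTPase-activating protein that links mTORC1 to Tfeb and Tfe3, had 104, 97.9, 90.4 and 92.8 CPM in the KO hearts and 72.4, 53.0, 91.2 and 57.4 CPM in the WT hearts. WT replicate 3 lay within the KO range of Flcn, and the log2 fold change was 0.49 ± 0.15 (edgeR adjusted p 0.711).

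Of the hydrolases, Ctsh, cathepsin H, averaged 27.1 ± 3.49 CPM in KO and 35.7 ± 5.16 CPM in WT (SD, n = 4 each), a log2 fold change of -0.40 ± 0.14 with an edgeR adjusted p of 0.715. Pip4p1, a lysosomal phosphatase also called Tmem55b, had a value of 0.29 ± 0.11, with all KO hearts above all WT hearts. Plekhm1, an adaptor of autophagosome and lysosome fusion, had a value of 0.21 ± 0.11, or 0.09 with the GC and length offset. The V-ATPase genes Atp6v0a1 and Atp6ap2 had values of 0.23 ± 0.11 and -0.24 ± 0.17, and that of Atp6ap2 was -0.39 without WT replicate 1, -0.13 without WT replicate 3 and -0.11 with the GC and length offset. Akt1s1, an inhibitory partner of mTORC1, had a value of 0.28 ± 0.15, and 0.12 without KO replicate 5 or 0.16 with the GC and length offset. None of these genes passed.

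**Figure D5:**
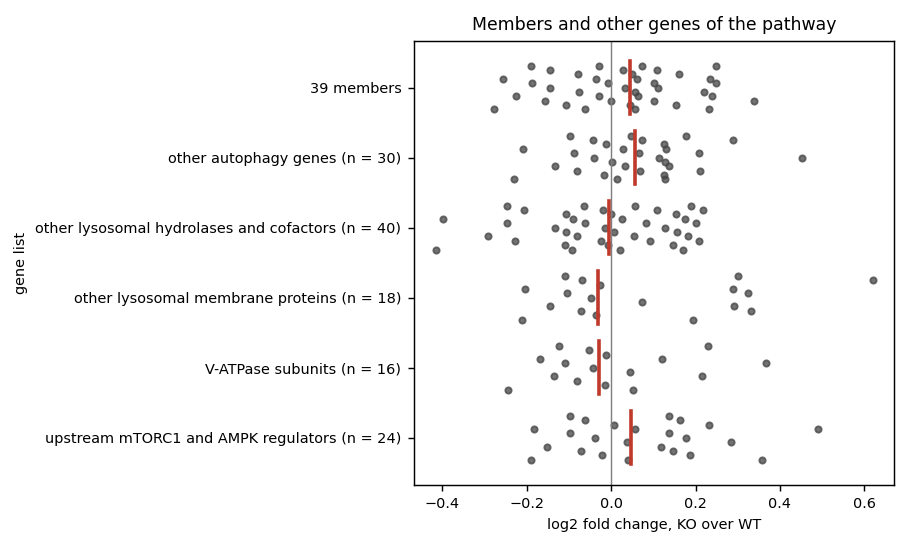
Log2 fold change of KO over WT for each of the 39 genes and for the genes of 5 other lists of the pathway; each point is a gene and each red bar the median of its list. The medians lie between -0.03 and 0.06, and the points of every list fall on both sides of 0.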

How the data were processed

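The labels' protocols give a stranded TruSeq mRNA kit for the 8 ventricle libraries. The submitters' processing notes name STAR 2.7.1a and the build GRCm38 (mm10). How reads were counted, on which strand and against which annotation is not given in the sources used here. Raw counts per Ensembl gene, 1 column per heart, are what the authors deposited. GENCODE M21 (GRCm38) gave symbols to 36345 of its 38293 identifiers. Hearts of the same group varied beyond counting error (chi-square per degree of freedom 11.4 or more for each pair).

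After filterByExpr (minimum count 10) and TMM scaling, edgeR 4.0.16 (R 4.3.3) fitted genotype as the only term to all 8 libraries. P-values from its quasi-likelihood F test were adjusted by Benjamini-Hochberg over 13336 genes, and each SE was derived from the fold change and its F statistic. Alternatives were DESeq2 1.42.0, limma-voom 3.58.1, other scalings and filters, an offset from splines (4 degrees of freedom) in GC content and length, and leaving out each library. A further alternative, the longest coding transcript as gene length, was chosen after seeing the data.

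The members, lists and tests were chosen with earlier results of these data known. Values in every heart are given for the 10 members of smallest p and for the member highest per kb in each role group. From each other list the 2 genes of smallest p are named, except 1 gene that is not reported here; which of these to give heart by heart, and the range of Atg4c, were chosen after their values were seen.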

Additional observations from a re-analysis of the deposited data

Results flagged for a closer look

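In 7 of 100 groups of 4 hearts (50 named genes, KO and WT each), a single heart stood far from the other 3. For normally distributed values chance alone gives about 1 in 20. That share is a rough guide here, because the groups share the same 8 hearts and the genes of the other lists were chosen by small p. The gap to the nearest heart is given as a share of the whole range. KO replicate 6 was the highest for Ulk1 (98.2 CPM, gap 0.974; the other KO hearts lay between 80.8 and 81.3). KO replicate 8 was the highest for Ulk2 (59.7 CPM, gap 0.943) and Atg12 (27.2 CPM, gap 0.853) and the lowest for Atg2a (50.3 CPM, gap 0.853). KO replicate 5 was the lowest for Plekhm1 (22.8 CPM, gap 0.939). WT replicate 2 was the highest for Lamp2 (137 CPM, gap 0.843), and WT replicate 1 for Npc1 (35.1 CPM, gap 0.863).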

How the results depend on the processing

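In all 16 alternatives, 0 of the 39 members and 0 of the 128 other pathway genes passed. The count of all genes called was 3, and it was 11 with DESeq2 and 10 without a filter; with 1 library left out it ran from 2 (KO replicate 6) to 6 (WT replicate 4). The members' median log2 fold change of 0.044 became -0.0046 with library totals, which move the median of all genes to -0.05, and, with 1 library left out, lay between 0.0011 (WT replicate 3 omitted) and 0.0643 (WT replicate 4 omitted).

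Of 312 member values under changed processing, 14 turned sign. With an offset for GC content and length Ulk2 stood at 0.0049, Atg2b at -0.0182, Atg3 at 0.014, Atg4d at -0.0164, Atg5 at 0.078, Map1lc3b at -0.0167, Gabarapl2 at 0.0658, Tfeb at -0.1448 and Ctsd at -0.0118. With library totals Atg10 stood at -0.0206, Atg16l1 at -0.0042, Tfeb at -0.0183 and Ctsd at -0.0046, and without a filter Pik3r4 at 0.0014. With 1 library left out, 20 of 312 values turned sign, over 11 genes. These ranged as follows: Ulk2 -0.0432 to 0.049, Pik3c3 -0.029 to 0.1651, Pik3r4 -0.0377 to 0.0329, Atg2b -0.0274 to 0.1044, Atg5 -0.1085 to 0.0831, Atg10 -0.0191 to 0.088, Atg16l1 -0.0238 to 0.1573, Gabarap -0.0346 to 0.113, Gabarapl2 -0.1442 to 0.1104, Tfeb -0.0328 to 0.1145 and Lamp1 -0.104 to 0.0004. The cause was not tested. Without WT replicate 1 the smallest adjusted p of a member was 0.317 (Ulk1), and 5 members of 39 had an unadjusted p under 0.05, beside 10.7% of all genes tested in that setting. No paired analysis was possible because KO and WT share no replicate numbers. The lowest count of a member in a library was 17, for Atg4c.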

Other observations

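Nbdy lies on the X chromosome, and 3 of the 39 members do too: the LC3 protease gene Atg4a, the transcription factor gene Tfe3 and the lysosomal membrane gene Lamp2. All 3 had negative log2 fold changes in KO against WT (-0.23, -0.16 and -0.19), and none passed. Of the 443 X-linked genes tested apart from Nbdy, these 3 included, 57.3% were negative (median -0.03), and of the 12768 autosomal genes 50.3% (median -0.0017). The cause was not tested.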
